A study of Mus musculus with 12 samples.

Results

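The 8 genes described here are the core of the brown fat heat program: Ucp1, Ucp3, Cpt1b, Elovl3, Cidea, Dio2, Ppargc1a and Prdm16. They were found by their gene names among the non-control probes of the arrays, where 11 of 55675 probes with values carry 1 of these names, and all 8 genes among 34796 gene names have at least 1 probe. Of the 11 probes, 8 were bright enough to be tested, and these stand for 7 genes, since Elovl3 was not well above background on any array. RNA was measured in the aorta of male C57BL/6J mice aged 11 to 14 weeks, 3 to a group, with 1 array for each of 12 mice. DMSO mice received the vehicle and no challenge, and rapamycin mice received rapamycin, an inhibitor of the kinase mTOR, at 2 mg/kg/day. BA+DMSO mice received beta-aminopropionitrile (BAPN), an inhibitor of the enzymes that crosslink elastin and collagen, at 150 mg/kg/day, angiotensin II (AngII), a pressor hormone, at 1 µg/kg/min, and the vehicle. BA+rapamycin mice received BAPN, AngII and rapamycin at the same doses. All 4 groups share the strain, and aortas of all 4 were taken on day 3. By the study's methods the sample was the 10 mm of aorta above the branch of the right renal artery. Rapamycin or DMSO was injected into the peritoneum daily. The DMSO arrays have Pre in their titles, and they are taken as DMSO without challenge from their treatment label. A figure legend of the study uses Pre for aorta before the challenge. The model is a drug-induced one over a few days in young mice without a transgene, and each sample is a whole piece of vessel that holds many cell types.

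Brown adipocytes burn fuel to make heat. Noradrenaline from sympathetic nerves acts on beta-adrenergic receptors, cyclic AMP rises, fatty acids are released and carried into mitochondria, and UCP1 in the inner membrane lets protons leak back so that the energy is lost as heat. The fat around the mouse thoracic aorta is of this brown kind, while the fat around the abdominal aorta is closer to white fat. UCP1 is the uncoupling protein that defines brown fat, and UCP3 is its relative found in skeletal muscle, heart and brown fat. CPT1B, the form of carnitine palmitoyltransferase in muscle and brown fat, lets long-chain fatty acids into mitochondria. ELOVL3 lengthens very long chain fatty acids, and CIDEA is a lipid droplet protein. DIO2 makes the active thyroid hormone T3 inside the cell, PGC-1alpha (Ppargc1a) switches on mitochondrial genes, and PRDM16 sets the brown fat identity.

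The Ucp1 and Ucp3 probes are shown first, because both uncoupling proteins rose with the challenge and the reading of each rests on 1 probe of 60 bases. They are printed in lower case from 5′ to 3′ as the array files give them, with coordinates on mouse build mm9. The Ucp1 probe lies at chr8:85821788-85821847 on the plus strand and the Ucp3 probe at chr7:107630399-107630458 on the plus strand, and the files do not say which exon holds them. No base is set in capitals in this pair.
Ucp1 probe: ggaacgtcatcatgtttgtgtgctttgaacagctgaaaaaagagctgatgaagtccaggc
Ucp3 probe: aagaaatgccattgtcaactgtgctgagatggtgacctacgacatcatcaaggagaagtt

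Promoters are shown for the 3 genes that rose with the challenge, Ucp1, Ucp3 and Dio2. RefSeq promoter sequences on build GRCm38.p6 were matched by symbol for 5 of the 8 genes, which are these 3 with Ppargc1a and Prdm16. The 250 bases before each start site were searched on both strands for the cyclic AMP response element TGACGTCA, its short core TGACG, the nuclear receptor core AGGTCA and the TATA motif TATAAA. Capitals mark the matches. The full element contains the short core on both strands, so those matches overlap. The windows are chr8:83290098-83290347 on the plus strand for Ucp1, chr7:100472741-100472990 on the plus strand for Ucp3 and chr12:90739039-90739288 on the minus strand for Dio2.
Ucp1 promoter: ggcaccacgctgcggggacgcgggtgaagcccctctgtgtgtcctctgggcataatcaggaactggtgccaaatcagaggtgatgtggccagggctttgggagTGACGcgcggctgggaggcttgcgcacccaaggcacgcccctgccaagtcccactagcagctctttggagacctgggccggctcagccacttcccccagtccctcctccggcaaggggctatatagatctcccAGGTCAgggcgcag
Ucp3 promoter: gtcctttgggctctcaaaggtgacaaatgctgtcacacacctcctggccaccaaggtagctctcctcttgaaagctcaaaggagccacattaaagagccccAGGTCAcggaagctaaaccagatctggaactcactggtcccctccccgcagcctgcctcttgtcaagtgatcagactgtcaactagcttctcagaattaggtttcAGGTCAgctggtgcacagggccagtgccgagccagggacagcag
Dio2 promoter: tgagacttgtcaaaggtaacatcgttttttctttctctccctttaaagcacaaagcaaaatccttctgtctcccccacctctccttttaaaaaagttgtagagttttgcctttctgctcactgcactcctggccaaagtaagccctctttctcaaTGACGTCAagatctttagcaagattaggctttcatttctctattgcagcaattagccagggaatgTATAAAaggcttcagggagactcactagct

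Dio2 held the full cyclic AMP response element TGACGTCA, which begins 95 bases before the start, and TATAAA at 30 bases. Of all 32851 promoters in the table, 1.55% hold the full element and 12.4% hold TATAAA in the same window. The short core TGACG stood in Dio2, in Ucp1 at 147 bases and in Ppargc1a at 49 bases on the minus strand, and in 17.8% of all promoters. AGGTCA stood in Ucp1 at 14 bases and in Ucp3 at 149 and 44 bases, and in 14% of all promoters. Prdm16 held none of these letters in its window. A match is only a run of letters, and enhancers that lie farther away, such as the well-known enhancer of Ucp1, are outside these windows.

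Values are given as log2 of the processed signal minus the 75th percentile of the same array, so 0 means as bright as that percentile, and levels are compared between arrays for 1 probe and never between probes. That percentile was 221 to 337 intensity units on the 6 unchallenged arrays and 74.6 to 246 on the 6 challenged arrays, and 41.2% to 53.1% of probes were well above background. The 3 DMSO arrays and rapamycin replicate 1 lay on slide 1 and all other arrays on slide 2. DMSO and BA+DMSO therefore share no slide, while BA+rapamycin and BA+DMSO lie wholly on slide 2. All 7 smooth muscle markers, which define the vessel wall, were well above background on all 12 arrays, while markers of neighbouring organs were mixed. Of 8 kidney markers 5, among them Umod and Kap, were on none, but Aqp2 was on 11 and Miox on 4, and of 6 adrenal cortex markers 4, among them Cyp11a1 and Star, were on none, but Cyp21a1 was on all 12. The tissue is a mixture, and fewer cells of a type and less RNA per cell cannot be told apart. Each array is 1 mouse, so p-values measure the spread between mice together with that of the arrays.

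The challenge moved the brown fat genes in both directions. With vehicle, Ucp1, Ucp3 and Dio2 rose and Prdm16 fell, while Cpt1b, Cidea and Ppargc1a did not pass the test. These 4 called genes of 7 tested compare with 20.5% of all 27801 tested probes called in that contrast, 9.65% higher and 10.8% lower (limma, Benjamini-Hochberg adjusted p under 0.05). Ucp1 entered the test only through the group where it was high, so its call was favoured by the filter, and without it 3 of 6 genes were called. The groups did not overlap for 5 of the 7 genes, which are the 4 called genes and Ppargc1a, beside 34.6% of all tested probes. With rapamycin present, Ucp3, Dio2 and Cpt1b rose and Cidea and Ppargc1a fell, 5 of 7, beside 41.7% of all probes, 18.9% higher and 22.9% lower. A call was thus common among all probes in both contrasts. The median log2 difference of the 7 genes was 0.90 in the challenge with vehicle and 0.55 with rapamycin, beside -0.04 and -0.08 over all tested probes. Both medians include Ucp1, and the 0.55 is its own value, so neither is read as a shift of the set. The other 6 genes ran from -1.12 (Prdm16) to 2.19 (Ucp3) with vehicle and from -2.61 (Cidea) to 1.73 (Dio2) with rapamycin. The 2 challenge contrasts share no array, while each shares arrays with both rapamycin contrasts.

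**Figure D1:**
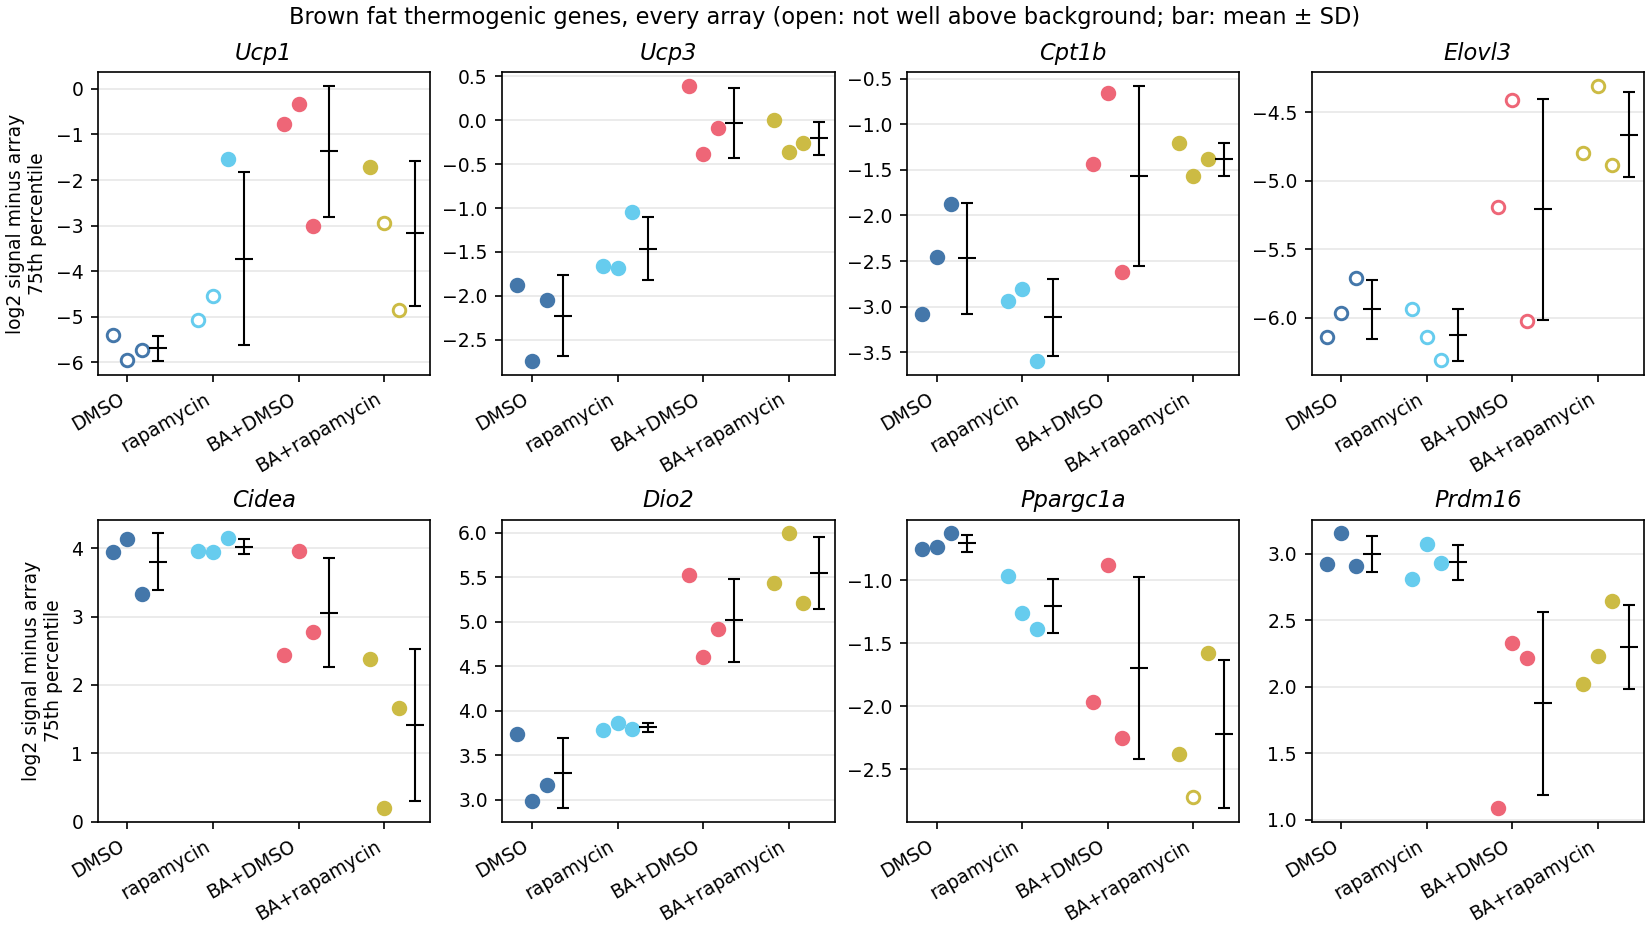
Each panel shows 1 gene, with the log2 signal minus the array's 75th percentile on the vertical axis and the 4 groups on the horizontal axis. Each point is 1 array, open where the probe was not well above background, and the bar beside each group is the mean ± SD (n = 3). Ucp1 is filled on all 3 BA+DMSO arrays and open on all 3 DMSO arrays, Dio2 and Ucp3 sit higher in both challenged groups, Prdm16 sits lower, and Elovl3 is open throughout.

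Ucp1, the gene that defines brown fat, was at background in vehicle-treated aorta. Its values on the 3 DMSO arrays were -5.40, -5.95 and -5.73, none of them well above background. On the BA+DMSO arrays they were -0.77, -0.33 and -3.01, all well above background, so the groups did not overlap and replicate 3 lay far below its group. The log2 difference was 4.32 (SE 1.01, 95% interval 2.10 to 6.54, adjusted p = 0.0143 by limma). Since DMSO holds only background, the change is given as at least 6.47-fold higher, with the DMSO arrays set to the lowest signal that was well above background on each. Ucp1 entered the test only through BA+DMSO, the group where it was high.

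Rapamycin-treated aorta showed Ucp1 in single mice. Without challenge the values were -5.08, -4.54 and -1.55, and only the last, replicate 3, was well above background. With challenge they were -1.71, -2.95 and -4.85 in BA+rapamycin, and only replicate 1 was well above background. The difference between BA+rapamycin and BA+DMSO was -1.80 (SE 1.01, adjusted p = 0.311) with overlapping groups, and its 95% interval ran from -4.02 to 0.42. It was -2.62 without BA+DMSO replicate 3, -0.96 without BA+rapamycin replicate 3 and -0.28 with normexp background correction. Rapamycin against DMSO gave 1.97 (SE 1.01, adjusted p = 1) and 0.88 without replicate 3, and no fold is given, since 5 of these 6 arrays were not well above background. BA+rapamycin against rapamycin gave 0.55 (SE 1.01, adjusted p = 0.674), and it turned to -0.12 on slide 2 alone and to -0.10 under quantile normalization.

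The size of the Ucp1 rise depended on how background was handled. With normexp background correction the challenge difference was 1.42 (adjusted p = 0.0139), so the lower bound on the fold given above holds for the main fit only. With 1 array left out of the main fit the difference ran from 3.80 to 5.14. The call was lost without DMSO replicate 2 (4.19, adjusted p = 0.0582) and without BA+DMSO replicate 1 (4.02, adjusted p = 0.0557). The lowest signal that was well above background lay at -4.52 to -3.71 on the DMSO arrays and at -3.95 to -2.61 on the BA+DMSO arrays, so the floor itself was higher on the dimmer arrays. With array brightness as a covariate, chosen after seeing the data, the difference was 3.52 (adjusted p = 0.0961). Brightness itself went with the challenge, at 257 to 337 units on rapamycin arrays and 74.6 to 109 on BA+rapamycin arrays. Of the challenged arrays only BA+DMSO replicate 3, at 246, reached the unchallenged range. The 2 can hardly be told apart, so a call lost with this covariate, here and below, does not decide between them.

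Ucp3, the uncoupling protein of muscle and brown fat, rose in both challenged groups. The DMSO arrays read -1.88, -2.74 and -2.05 and the BA+DMSO arrays 0.39, -0.39 and -0.09, all well above background and with no overlap. The log2 difference was 2.19 (SE 0.28, adjusted p = 0.000837), a 4.57-fold rise. Rapamycin arrays stood at -1.66, -1.68 and -1.05 and BA+rapamycin arrays at 0.00, -0.36 and -0.26, again apart, with a difference of 1.25 (SE 0.28, adjusted p = 0.00682) or 2.39-fold, and the latter call was lost with array brightness as a covariate (1.64, adjusted p = 0.0766). Within challenged mice the 2 groups overlapped, and the difference of -0.18 had a 95% interval of -0.80 to 0.45. Unchallenged rapamycin mice lay above DMSO mice on all 3 arrays, by 0.76 (unadjusted p = 0.0208, adjusted p = 1 by limma). A second Ucp3 probe at chr7:107634291-107634350 was not well above background on any of the 12 arrays, so the 2 probes of this gene disagree and the rise rests on the first. Under normexp correction the challenge difference of the first probe was 1.44.

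Cpt1b, the gate for fatty acids into muscle and brown fat mitochondria, passed the test only where rapamycin was present. BA+rapamycin arrays read -1.20, -1.57 and -1.38 and rapamycin arrays -2.94, -2.81 and -3.60, with no overlap and a difference of 1.73 (SE 0.45, adjusted p = 0.0129), 3.31-fold. With vehicle the values were -3.08, -2.45 and -1.87 in DMSO and -1.43, -0.66 and -2.61 in BA+DMSO, where replicate 3 fell inside the DMSO range. That difference was 0.90 (SE 0.45, adjusted p = 0.180), and it was 1.42 (adjusted p = 0.0146) without BA+DMSO replicate 3. Whether the 2 challenge effects differ was tested by the interaction, at 0.83 (SE 0.64, adjusted p = 0.737). The probe named here lies at chr15:89247106-89247165, and a second at chr15:89246836-89246895 gave 1.21 (adjusted p = 0.112) in the rapamycin arm and 0.22 (adjusted p = 0.819) with vehicle. Both probes are also annotated to a noncoding transcript, so their signal cannot be assigned to Cpt1b alone. The rapamycin-arm call was lost without rapamycin replicate 3 (1.49, adjusted p = 0.0566), and with array brightness as a covariate the difference was -0.02. Before scaling, the first probe read 33.55, 38.84 and 27.9 units in rapamycin and 47.43, 25.1 and 41.36 in BA+rapamycin, which overlap. Under normexp correction its difference in that arm was 1.14 (limma, adjusted p = 0.00488).

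Elovl3, the fatty acid elongase that rises with cold in brown fat, gave no usable signal. Its probe at chr19:46209762-46209821 read -6.31 to -5.71 on the 6 unchallenged arrays and -6.03 to -4.31 on the 6 challenged arrays, and none was well above background. On the unscaled intensity axis these are 3.61 to 4.26 units on all 12 arrays, with no higher intensity on the challenged arrays. No fold is given for it.

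Cidea, the lipid droplet protein of brown fat, fell in challenged mice given rapamycin. Rapamycin arrays read 3.96, 3.95 and 4.15 and BA+rapamycin arrays 2.38, 0.19 and 1.67, with no overlap, a difference of -2.61 (SE 0.52, adjusted p = 0.00382) or 6.10-fold lower. With array brightness as a covariate the difference was -2.69 and the call was lost (adjusted p = 0.131). With vehicle the values were 3.94, 4.13 and 3.33 in DMSO and 2.44, 3.96 and 2.78 in BA+DMSO, where replicate 2 kept a DMSO-like value, and the difference of -0.74 (SE 0.52, adjusted p = 0.330) did not pass. All 3 BA+rapamycin arrays lay below all 3 BA+DMSO arrays, with a difference of -1.65 (SE 0.52) and an adjusted p of 0.148 (unadjusted p = 0.00859, limma). It was -1.04 (adjusted p = 0.360) without BA+rapamycin replicate 2, and leaving out each array in turn gave -2.13 to -1.04. Replicate 1 of each of these groups has the same day in its title, and these 2 arrays stood close, at 2.38 and 2.44. BA+DMSO replicates 2 and 3 have no day in their titles, and no DMSO array shares a titled day with BA+DMSO. The interaction was -1.87 (SE 0.73, unadjusted p = 0.0267, adjusted p = 0.737). The probe lies on build mm9 at chr18:67527351-67527410.

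Dio2, the enzyme that makes T3, rose by about the same amount with and without rapamycin. DMSO arrays read 3.74, 2.99 and 3.16 and BA+DMSO arrays 5.53, 4.61 and 4.92, and the groups lay apart. The difference was 1.72 (SE 0.29, adjusted p = 0.00292), 3.29-fold. Rapamycin arrays at 3.78, 3.87 and 3.80 and BA+rapamycin arrays at 5.43, 5.99 and 5.21 were also apart, by 1.73 (SE 0.29, adjusted p = 0.00170), 3.32-fold. Both calls held when any 1 array was left out, where the differences ranged from 1.47 to 1.94 and from 1.51 to 1.90. Rapamycin added 0.53 under challenge (95% interval -0.10 to 1.16, adjusted p = 0.300) and 0.52 without it (adjusted p = 1), neither past the test. The interaction was 0.01 (SE 0.40, adjusted p = 0.994). With array brightness as a covariate the differences were 1.74 with vehicle (adjusted p = 0.0141) and 1.77 with rapamycin (adjusted p = 0.0724). Before scaling, the probe read 3536, 3966 and 4686 units in rapamycin and 4727, 4758 and 3982 in BA+rapamycin, which overlap. Under normexp correction the difference in that arm was 1.28 (limma, adjusted p = 0.00343). The probe lies at chr12:91963235-91963294 on the minus strand of mm9.

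Ppargc1a, the coactivator of mitochondrial genes, was lower in challenged mice and close to the threshold. DMSO arrays read -0.76, -0.74 and -0.63 and BA+DMSO arrays -1.96, -0.88 and -2.25, with no overlap, but the difference of -0.99 (SE 0.36, adjusted p = 0.0719) did not pass. BA+DMSO replicate 2 was nearest to the DMSO arrays, and without it the difference was -1.40 (adjusted p = 0.00748). Rapamycin arrays at -0.97, -1.26 and -1.39 lay above BA+rapamycin arrays at -2.38, -2.72 and -1.57, where the second was not well above background, with a difference of -1.02 (SE 0.36, adjusted p = 0.0408), 2.02-fold lower. That call was lost in 8 of 12 fits that left out 1 array, with adjusted p up to 0.142, and under normexp correction the difference was -0.03. With array brightness as a covariate the difference was -1.49 (adjusted p = 0.0344) with vehicle and -1.89 (adjusted p = 0.0759) with rapamycin. The probe lies at chr5:51848928-51848987, and a second Ppargc1a probe at chr5:51846926-51846985 was not well above background on any array.

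Prdm16, the factor that sets brown fat identity, fell with the challenge. DMSO arrays read 2.92, 3.15 and 2.91 and BA+DMSO arrays 1.09, 2.33 and 2.22, with no overlap and a difference of -1.12 (SE 0.30, adjusted p = 0.0248), 2.17-fold lower. BA+DMSO replicate 1 was the lowest, and without it the difference was -0.72 (adjusted p = 0.0523). Leaving out DMSO replicate 1, 2 or 3 also ended the call, at adjusted p of 0.0609, 0.0978 and 0.0608, as did the covariates for array brightness (-1.11, adjusted p = 0.0804) and adipocyte genes (-1.03, adjusted p = 0.0953). Rapamycin arrays at 2.81, 3.07 and 2.93 lay above BA+rapamycin arrays at 2.02, 2.23 and 2.64, and the difference of -0.64 (SE 0.30, adjusted p = 0.107) did not pass, whereas under normexp correction it was -0.94 (adjusted p = 0.00904). Rapamycin under challenge gave 0.42 (95% interval -0.24 to 1.08, adjusted p = 0.394). The probe lies at chr4:153690254-153690313.

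No rapamycin effect on the 7 tested genes passed the test. Under challenge, 0 of 7 tested genes were called by limma beside 0.281% of all probes, and 1 of 7, Cidea, had an unadjusted p under 0.05, as did 5585 of 27801 probes. Without BA+DMSO replicate 2 the count was still 0 of 7, beside 39.9% of all probes called. Without challenge, 0 of 7 were called beside 0.0036% of all probes, and 1 of 7, Ucp3, had an unadjusted p under 0.05, as did 1187 of 27801 probes. The interaction, which asks whether the challenge effect differs with rapamycin, called 0 of 7 beside 0% of all probes. Without BA+DMSO replicate 2 it called 0 of 7 beside 11% of all probes. With all arrays 3 of 7 had an unadjusted p under 0.05, as did 1702 of 27801 probes. Those 3 were Ucp3 at -0.94 (limma, unadjusted p = 0.0388, adjusted p = 0.737), Cidea at -1.87 and Ucp1. The Ucp1 value rests on 7 of 12 arrays where the probe was not well above background, all 3 DMSO arrays among them, and moved from -3.77 to -0.64 with normexp background correction, so its p is not read. A miss at this number of mice does not show equal levels, as the width of the intervals in the plot of differences shows.

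**Figure D2:**
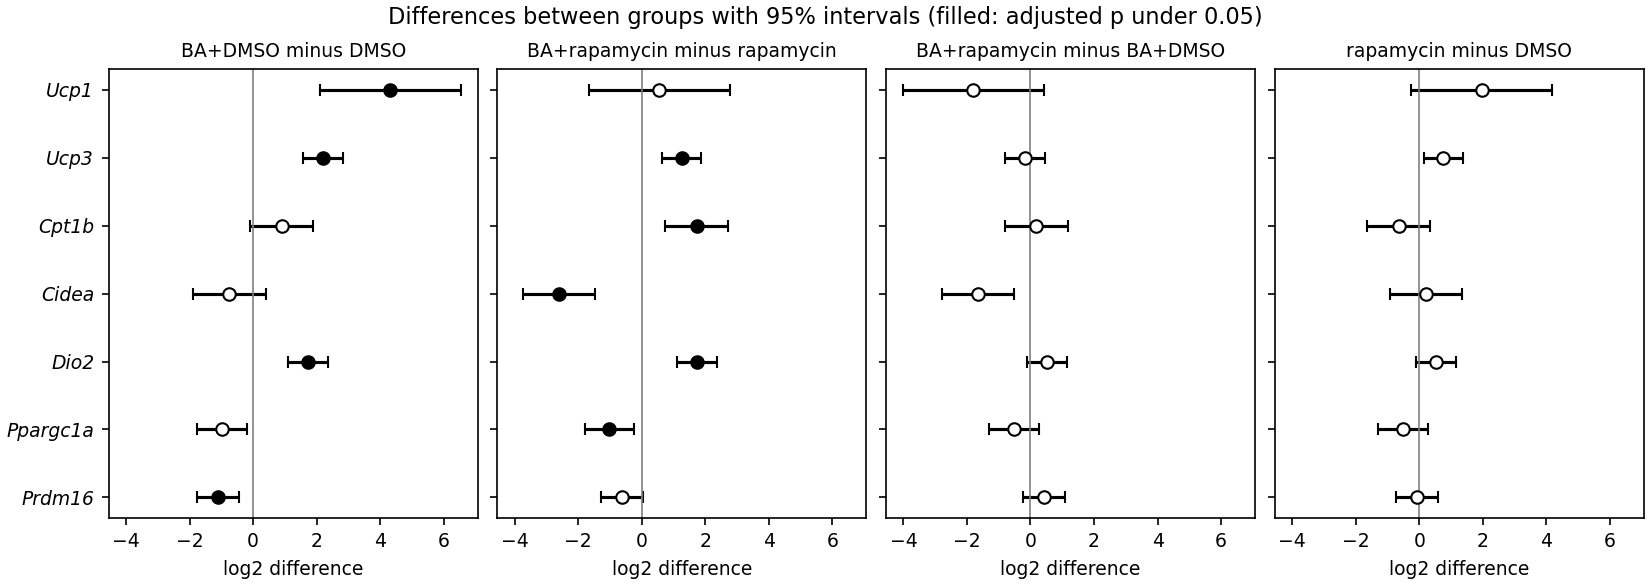
Each panel plots 1 contrast, with the log2 difference between groups on the horizontal axis and 7 genes on the vertical axis. Points are limma estimates, filled where the adjusted p was under 0.05, and bars are 95% intervals (n = 3 a group). Filled points stand only in the 2 challenge panels, 4 with vehicle and 5 with rapamycin, and Ucp1 has the widest intervals.

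Slide limits the challenge with vehicle. With slide as a fixed block the shift between slides is set by the rapamycin arrays, which lie on both, and limma then called 0 of the 7 genes and 15 of all tested probes. Ucp1 then stood at 2.29 (adjusted p = 0.656), Ucp3 at 1.90 (adjusted p = 0.243), Dio2 at 1.67 (adjusted p = 0.316) and Prdm16 at -1.31 (adjusted p = 0.442). With slide as a random block limma called 5 of the 7 genes and 36.9% of all probes, with Ppargc1a gained at -1.06 (adjusted p = 0.0117). The estimated correlation within slides was -0.133, below 0, so that fit makes no allowance for a shift between slides. In the rapamycin arm the contrast can be made on slide 2 alone, with 3 BA+rapamycin and 2 rapamycin arrays. There Dio2 at 1.71 (adjusted p = 0.0274) and Cidea at -2.64 (adjusted p = 0.0411) were called, and Ucp3 at 1.16 (adjusted p = 0.0519), Cpt1b at 1.81 (adjusted p = 0.0577) and Ppargc1a at -0.90 (adjusted p = 0.192) were not. BA+rapamycin and BA+DMSO share slide 2. Slide 1 holds the 3 DMSO arrays and 1 rapamycin array, so rapamycin against DMSO within it gives sizes only. These ran from -0.47 (Cpt1b) to 0.57 (Ucp3), leaving aside Ucp1, which was at background on these arrays.

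Fat cell transcripts varied widely between challenged mice, without a call in the challenge with vehicle. Of 16 general adipocyte genes, 12 were tested and limma called 0 in the challenge with vehicle, where 1 gene had an unadjusted p below 0.05 and the median log2 difference was 1.27, beside 20.5% of all probes called and a median of -0.04. One gene, Car3, was called in the rapamycin arm (2.25, adjusted p = 0.0305), where the median was 1.35, beside 41.7% of all probes called and a median of -0.08. The 3 with the largest challenge difference were Pck1 at 2.40 (adjusted p = 0.0822), Adipoq, which encodes adiponectin, at 2.08 (adjusted p = 0.149) and the lipid droplet gene Cidec at 1.80 (adjusted p = 0.200). Rapamycin under challenge had its largest values in Pck1 at -2.08 (adjusted p = 0.234), Lpl at -0.91 (adjusted p = 0.186) and Fabp4 at -0.53 (adjusted p = 0.540). Lep, which encodes leptin, and Lgals12 were not well above background on any array. The summed level of the 12 tested genes, in multiples of the array's 75th percentile, ranged from 57.2 to 76.5 in DMSO mice and from 47.0 to 93.6 in rapamycin mice, against 68.8 to 245 (BA+DMSO) and 47.3 to 274 (BA+rapamycin). The spread between mice of 1 challenged group was thus wider than in either unchallenged group.

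Array by array, Ucp1 was read beside this fat signal. The mean change of the 12 adipocyte genes from the DMSO mean was 2.11 on BA+DMSO replicate 2, 1.17 on replicate 1 and 0.23 on replicate 3, the same order as Ucp1 in that group. BA+rapamycin replicate 1, the only array of its group with Ucp1 well above background, had 2.08, and replicates 2 and 3 had -0.28 and 0.66. Rapamycin replicate 3, the only unchallenged array with Ucp1 well above background, had 0.53, and the other unchallenged arrays had -1.05 to 0.31. No difference of Ucp1 relative to the adipocyte genes is given for the challenge with vehicle, since the DMSO arrays hold only background and the probe entered the test only through BA+DMSO. With the same limit, the Ucp1 call in that contrast was lost with the adipocyte mean as a covariate, chosen after seeing the data (adjusted p = 0.0627, limma).

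Cidea, Ppargc1a and Prdm16 lay lower relative to the fat signal in challenged mice, although 3 arrays against 3 cannot give a p below 0.1 here. Relative to the adipocyte genes, the challenge difference was -1.91 for Cidea, -2.16 for Ppargc1a and -2.29 for Prdm16, each with no overlap between groups (two-sided exact permutation p = 0.1, and 0.311 after Benjamini-Hochberg adjustment over 28 comparisons, for each). In the rapamycin arm the relative difference was -3.65 for Cidea and -2.06 for Ppargc1a, also with no overlap and the same p, but Prdm16 overlapped at -1.68 (exact permutation p = 0.2, adjusted p = 0.509). Under normexp correction Ppargc1a stood at -1.21 with vehicle and at -0.72 in the rapamycin arm (exact permutation p = 0.5). Between BA+rapamycin and BA+DMSO the relative difference of Cidea was -1.30 (exact permutation p = 0.1, adjusted p = 0.311). For Dio2 and Ucp3 the relative challenge differences were 0.55 and 1.02 with overlapping groups (exact permutation p = 0.4 for both), and for Cpt1b -0.27 (exact permutation p = 0.6). With the adipocyte mean as a covariate, limma called Dio2 at 1.85 (adjusted p = 0.0109) and Ucp3 at 2.01 (adjusted p = 0.00665) in the challenge with vehicle, but not Cidea at -1.45 (adjusted p = 0.0645), Ppargc1a at -1.27 (adjusted p = 0.0694) or Prdm16 at -1.03 (adjusted p = 0.0953). In the rapamycin arm the same covariate left Cidea at -3.24 (adjusted p = 0.00179), Ppargc1a at -1.27 (adjusted p = 0.0383), Dio2 at 1.85 (adjusted p = 0.00566) and Ucp3 at 1.09 (adjusted p = 0.0326) called, and Cpt1b at 1.47 (adjusted p = 0.0562) and Prdm16 at -0.56 (adjusted p = 0.244) not called. These fits called 9.97% and 24.9% of all probes.

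**Figure D3:**
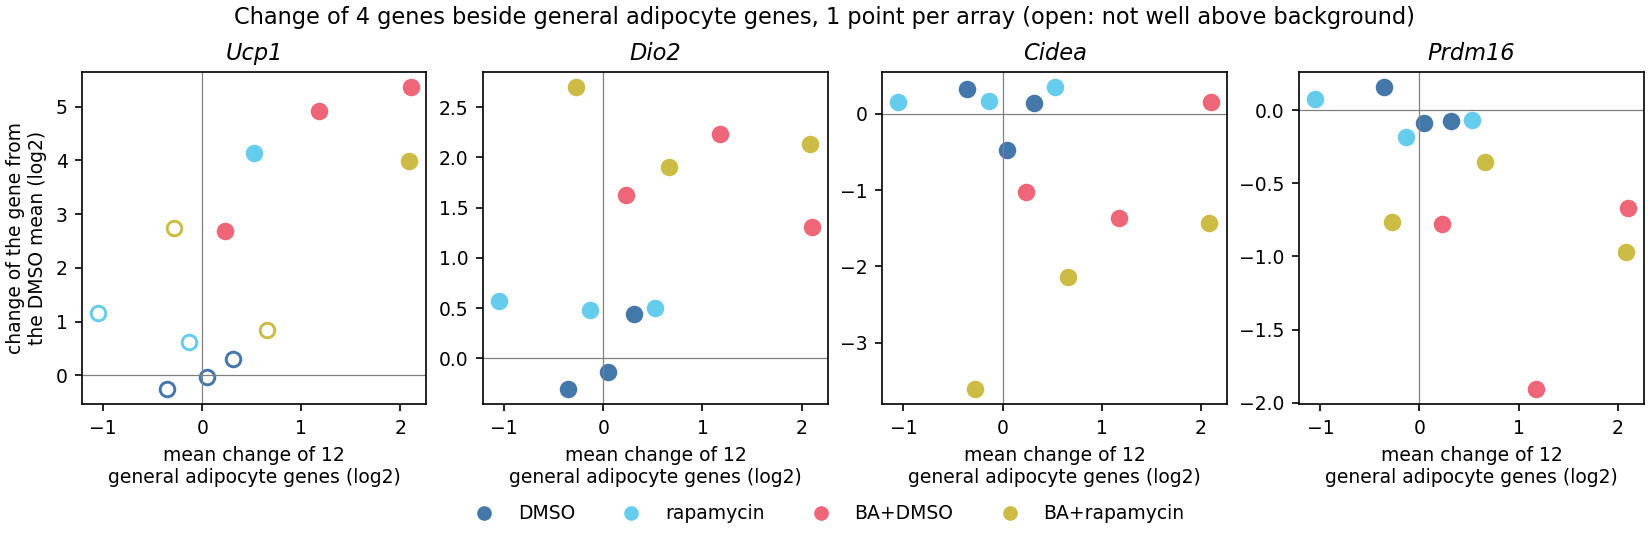
Each panel sets the change of 1 gene from its DMSO mean (vertical axis, log2) against the mean change of 12 general adipocyte genes on the same array (horizontal axis, log2), with 1 point per array coloured by group and open where the gene was not well above background. The 2 highest Ucp1 points are BA+DMSO replicates 2 and 1, at 2.11 and 1.17 on the horizontal axis, while Cidea and Prdm16 lie at or below 0 on challenged arrays whatever the fat signal, except BA+DMSO replicate 2 for Cidea.

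Muscle and inflammatory cells were also read, since Ucp3 and Cpt1b are muscle genes too. Of 12 tested striated muscle genes, 1 rose and 2 fell in the challenge with vehicle, with a median of -0.82, and 4 rose and 2 fell in the rapamycin arm, with a median of 0.45. All probes had 20.5% and 41.7% called in these contrasts. Their summed level was 68.0 to 70.3 in DMSO and 22.3 to 66.3 in BA+DMSO, and 56.2 to 64.2 in rapamycin and 20.7 to 36.8 in BA+rapamycin. The probe of Acta1, skeletal muscle actin, carried 50.5% to 93.2% of that summed signal on single arrays. This share gives the weight of 1 probe in the sum, not the RNA level of Acta1 relative to other genes. The mean change of the 12 genes from the DMSO mean, which weights them equally, ran from -0.91 to -0.77 (rapamycin), from -1.24 to 0.36 (BA+DMSO) and from -0.81 to 0.71 (BA+rapamycin). The largest challenge differences were in Mb at -2.43 (adjusted p = 0.256), Myh7 at -1.72 (adjusted p = 0.00953) and Ckm at -1.56 (adjusted p = 0.113). In BA+DMSO, Mb on replicates 1 and 3, Ckm on replicates 1 and 2 and Myh7 on replicate 1 lay below the lowest signal that was well above background. The size and order of these differences are therefore not exact. But Pvalb, the calcium buffer of fast fibres, rose by 1.42 with vehicle (adjusted p = 0.0178) and by 1.76 in the rapamycin arm (adjusted p = 0.00397). Tnni2, a fast troponin, stood at 1.33 (adjusted p = 0.0707) and rose by 2.65 in the rapamycin arm (adjusted p = 0.00247). Mb at 2.45, Cox6a2 at 1.78 and Myl1 at 1.34 led in rapamycin under challenge, at adjusted p of 0.302 to 0.342. The size and place of Mb have the same limit, since BA+DMSO replicates 1 and 3 enter this contrast too. Of 5 cardiac markers limma called 0 with vehicle, with 0 at an unadjusted p under 0.05, and 1 in the rapamycin arm, Myl7 at 2.37 (adjusted p = 0.0498). Their mean change on BA+DMSO replicates 1, 2 and 3 was -1.88, 0.95 and -1.47, and on BA+rapamycin replicates 1, 2 and 3 it was 1.83, 0.65 and -0.72. Macrophage markers rose in 6 of 7 genes with vehicle, led by Cd68 at 2.63 (adjusted p = 0.00232), and in 5 of 7 with rapamycin, with summed levels of 110 to 141 in DMSO and 187 to 490 in BA+DMSO. The Itgam probe weighs most in that sum, and it overlapped, at 6.38, 6.45 and 6.90 in DMSO and 7.84, 8.74 and 6.53 in BA+DMSO. With the 7 genes weighted equally, the mean change from the DMSO mean was -0.31 to 0.55 in DMSO and 1.47 to 2.655 in BA+DMSO. Of 6 other leukocyte markers 3 rose with vehicle and 2 with rapamycin, among them Ptprc, which encodes CD45, at 1.79 with vehicle (adjusted p = 0.00528). Of 7 smooth muscle markers 2 fell with vehicle, Synpo2 at -2.58 (adjusted p = 0.000955) and Lmod1 at -1.91 (adjusted p = 0.00190), and of 5 endothelial markers 1 rose, Kdr at 1.28 (adjusted p = 0.0154). In the rapamycin arm 1 smooth muscle marker rose and 2 fell, and 1 endothelial marker rose and 2 fell. The summed smooth muscle level was 2647 to 3095 in rapamycin and 3478 to 4521 in BA+rapamycin. The mean change of these 7 genes from the DMSO mean went the other way, at -0.18 to -0.01 and -0.80 to -0.57. Of 2 tested kidney markers and 1 tested adrenal cortex marker limma called 0 with vehicle, with 0 at an unadjusted p under 0.05, and Cyp21a1 of the adrenal cortex rose in the rapamycin arm by 0.95 (adjusted p = 0.0122). The part of these cell types in the changes of Ucp1, Ucp3, Cpt1b and Dio2 was not tested.

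Other brown fat genes moved both ways. Of 41 other brown fat genes, 31 were tested, and the challenge with vehicle called 3 higher and 7 lower, with a median of -0.05, beside 9.65% of all probes called higher and 10.8% lower. In the rapamycin arm 4 were higher and 9 lower, with a median of -0.13, beside 18.9% and 22.9% of all probes. Limma called 0 of 31 in rapamycin under challenge, in rapamycin alone and in the interaction, where 5, 2 and 1 had an unadjusted p under 0.05, beside 5585, 1187 and 1702 of 27801 probes. Ucp2, the uncoupling protein of many tissues including leukocytes, had the largest challenge difference at 2.17 (SE 0.38, adjusted p = 0.00371), from -1.95, -2.92 and -2.41 in DMSO to 0.40, -1.16 and 0.00 in BA+DMSO. Cox8b, the cytochrome oxidase subunit of muscle and brown fat, came next at 2.01 (SE 0.87, adjusted p = 0.125), with 1.74, 3.01 and -0.17 in BA+DMSO against -0.39, -1.10 and 0.05 in DMSO. Slc36a2, an amino acid transporter used as a brown fat surface marker, stood at 1.57 (SE 0.60, adjusted p = 0.0853) with -0.27, 0.58 and -1.80 in BA+DMSO. In both, replicate 2 was highest and replicate 3 lowest, as for Ucp1.

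The hormone and adrenergic inputs split. Of the 7 tested, 1 was called higher and 2 lower with vehicle, and 2 higher and 1 lower in the rapamycin arm, beside 20.5% and 41.7% of all probes called in either direction. Adrb3, the beta-adrenergic receptor of fat cells, stood at 1.41 (adjusted p = 0.150) with vehicle and rose by 2.24 (adjusted p = 0.0203) in the rapamycin arm. Gpr3, a receptor that raises cyclic AMP without a ligand, rose in both, by 0.92 (adjusted p = 0.0196) and 0.95 (adjusted p = 0.00997). The thyroid hormone receptor gene Thrb fell in both, at -1.36 (adjusted p = 0.0150) and -2.00 (adjusted p = 0.00150), in mice whose Dio2 had risen, and Thra fell with vehicle, at -0.88 (adjusted p = 0.0470). None of the 7 tested transcriptional regulators, among them Pparg, Ebf2 and Zic1, was called with vehicle, and Nrip1 alone was called in the rapamycin arm, at -0.84 (adjusted p = 0.0107), beside the same 20.5% and 41.7%.

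Of 17 tested mitochondrial and fuel genes of that list, 5 were called lower and 2 higher with vehicle, and 7 lower and 2 higher in the rapamycin arm, and Ucp2 was 1 of the 2 in both. Among all probes 10.8% were called lower and 9.65% higher with vehicle, and 22.9% and 18.9% in the rapamycin arm. Those lower with vehicle were Acadm at -0.83 (adjusted p = 0.00878), Acadl at -0.89 (adjusted p = 0.0350), both dehydrogenases of beta-oxidation, the fatty acid carrier Fabp3 at -1.52 (adjusted p = 0.0213), glycerol kinase Gyk at -1.17 (adjusted p = 0.0323) and the thioesterase Acot11 at -1.09 (adjusted p = 0.00354). The same 5 genes fell in the rapamycin arm, where Acadvl at -0.47 (adjusted p = 0.0475) and Pdk4 at -1.92 (adjusted p = 0.00169) fell as well. Elovl6, an elongase of fat synthesis, rose in both, by 1.18 (adjusted p = 0.00611) and 1.39 (adjusted p = 0.00168). Over all 31 tested genes of that list, hormone inputs included, rapamycin under challenge had its largest values in Cox8b at -2.08 (adjusted p = 0.227), Bmp7 at -0.97 (adjusted p = 0.213) and Pdk4 at -0.70 (adjusted p = 0.246). Bmp7, one of the hormone inputs, was well above background on 1 BA+DMSO array and on no BA+rapamycin array, so its value is not exact.

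**Figure D4:**
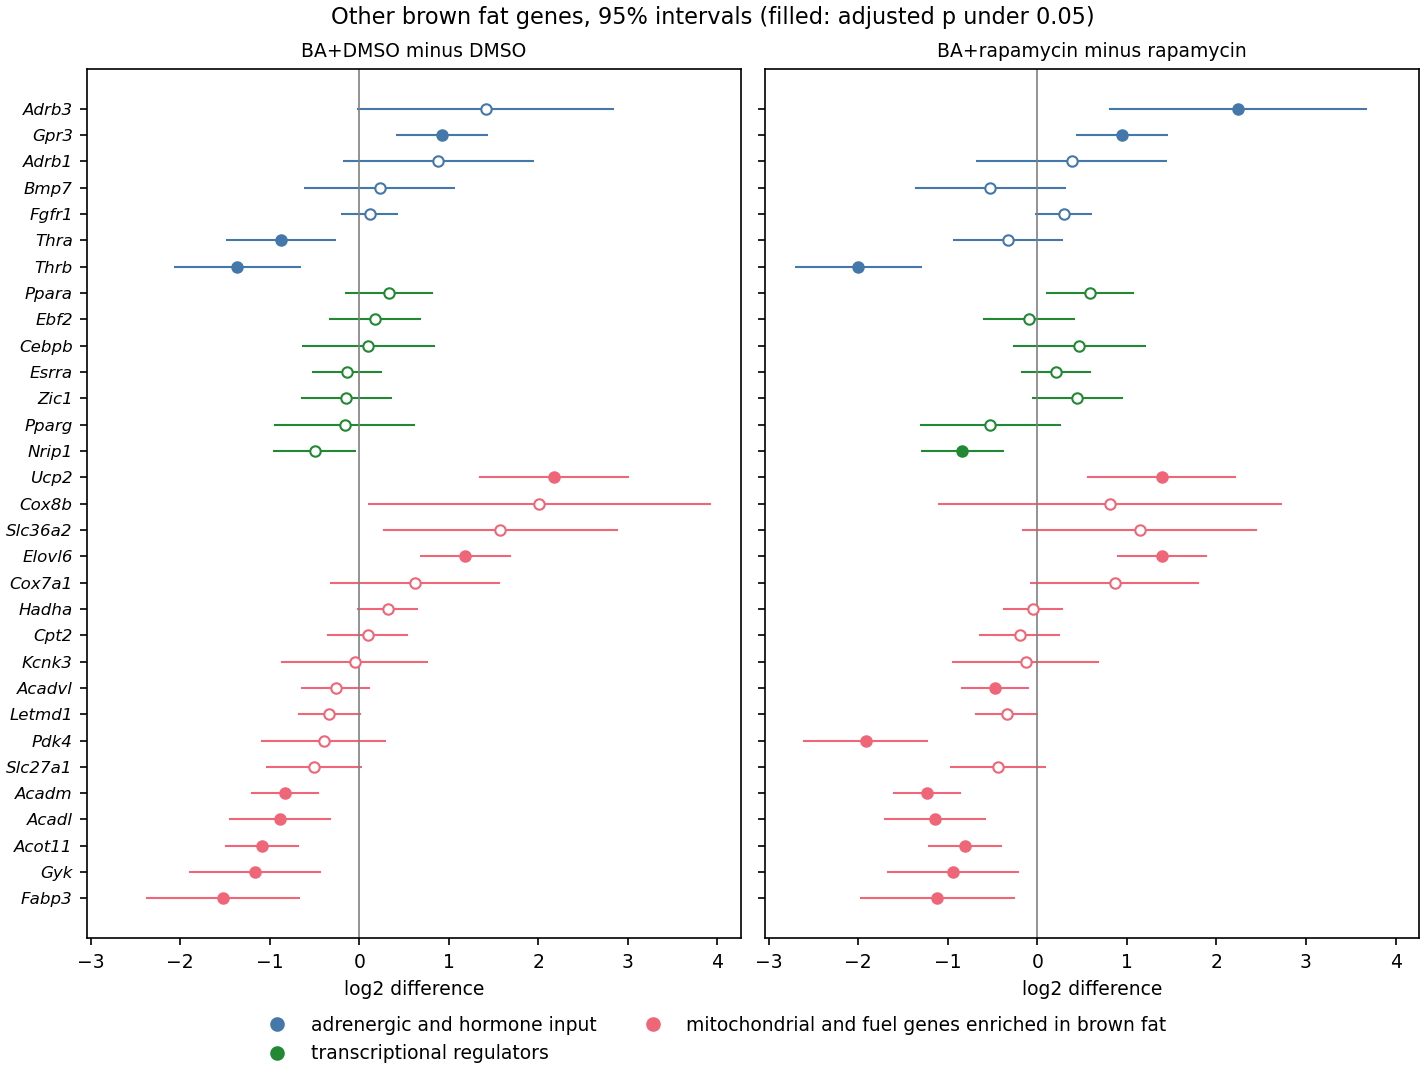
The 31 tested brown fat genes outside the core 8 are listed on the vertical axis by role, with the log2 difference between groups on the horizontal axis, for the challenge with vehicle (left) and with rapamycin (right). Points are limma estimates with 95% intervals (n = 3 a group), filled where the adjusted p was under 0.05. The fuel genes Acadm, Acadl and Fabp3 lie left of 0 in both panels, and Ucp2 and Elovl6 lie right of 0.

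Mitochondrial biogenesis genes, the targets of PGC-1alpha, were called lower in 2 of 15 with vehicle and in 8 of 15 with rapamycin, and none was called higher. Among all probes 10.8% and 22.9% were called lower. The medians were -0.23 and -0.62. With vehicle Sirt3, a mitochondrial deacetylase, was at -0.93 (adjusted p = 0.0175) and Gabpa at -0.77 (adjusted p = 0.0378), and Tfam, the factor of mitochondrial DNA, at -0.51 (adjusted p = 0.208) did not pass. In rapamycin under challenge limma called 0 of 15, with 6 at an unadjusted p under 0.05 beside 5585 of 27801 probes. The median was -0.47, beside -0.01 over all probes, with the largest values in Idh3a at -0.80 (adjusted p = 0.188), Ndufs1 at -0.61 (adjusted p = 0.227) and Cox5b at -0.60 (adjusted p = 0.133). The mean over the 15 genes, relative to the DMSO mean, was -0.25, -0.64 and 0.15 on the BA+DMSO arrays, where replicate 3 was highest, against -0.60, -0.69 and -0.72 on the BA+rapamycin arrays. Of 6 sympathetic nerve genes 2 were tested and limma called 0 in each contrast, with 0 at an unadjusted p under 0.05. One was Th, which makes catecholamines, with a challenge difference of 0.39 (adjusted p = 0.212), while Dbh and Npy were not well above background on any array.

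The genes whose pattern over the 12 arrays was most like that of Ucp1 were Cd36, a fatty acid transporter (Pearson's r = 0.86), Slc1a3 (0.84), Spag4 (0.84), Abhd15 (0.83), Tspan18 (0.82), Nde1 (0.82), Rbms1 (0.82), Anks6 (0.81), Gpx3 (0.81) and Cln3 (0.81). Among the core genes the next was Ucp3 (0.78), at place 22 of all named genes, while Dio2 (0.61) and Cpt1b (0.42) came later and Cidea (-0.18), Ppargc1a (-0.50) and Prdm16 (-0.71) were negative. These values describe 12 arrays of which 7 hold Ucp1 at background, and they share the split between challenged and unchallenged mice and the brightness of the arrays. No test was made of them.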

How the data were processed

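RNA of 12 mouse aortas, 4 groups of 3, was hybridised to Agilent 1-colour arrays. Per the file headers, the authors read the images with Feature Extraction 10.7.1.1 (the submitters' processing notes name 9.5.1.1), and the deposited intensity values are background-subtracted spot signals of 60-base probes placed on mouse mm9, with flags, the other deposited columns, per spot. The deposited intensity matrix, quantile normalized as far as its values show, was used as an alternative. All value columns were mapped to samples (0 unmapped).

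Control spots and outlier flags were left out, spots of a probe were averaged, and log2 of the signal was taken minus the array's 75th percentile. Tests kept probes with a share of 0.5 or more of their spots well above background on each of the 3 arrays in some group, which left 27801 of 55675 probes (6 more had no value). A mean per group was fitted to all 12 arrays with limma 3.58.1 in R 4.3.3, with Benjamini-Hochberg adjustment over all tested probes and a threshold of 0.05. Changes relative to 12 adipocyte genes used a two-sided exact permutation test. The number of arrays limits the precision, and 0 spots were saturated.

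Each gene was read from its tested probe with the highest mean, except in the ranking by likeness to Ucp1. That ranking took some genes from another probe, among them Thra, Thrb and Tfam, while the core genes kept theirs. Genes of the other lists were named from the 3 with the largest difference in the challenge or in rapamycin under challenge, with the 10 genes most correlated with Ucp1. Other called brown fat genes, Car3, Pvalb, Tnni2, Acta1, Myl7 and Cyp21a1 were named after their values were seen, as were the regulators named as not called. The genes, lists and tests were chosen with earlier results of these data known. The covariates for array brightness and the adipocyte mean, and the fit within slide 1, were chosen after seeing the data. The fit was tested on simulated data for the challenge over 27801 probes, where of 50 probes at each size it recovered 11 at a log2 change of 1, 29 at 2, 46 at 3 and 48 at 4, with 14 false calls. No other probes were changed there, a far smaller share than the 20.5% called in the challenge with vehicle. These counts therefore do not give the power in the real data. Alternatives covered normalization, background, filter, slide, array weights, the methods' rule (unadjusted p under 0.01 and a fold over 4 or under 0.25) and each array left out.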

Additional observations from a re-analysis of the deposited data

How the results depend on the processing

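Of 822 alternative values for 31 results on single genes, 749 kept their direction and side of the threshold, 46 lost the threshold, 8 gained it and 19 changed sign. Many of these values could not change direction. The methods' rule repeated the main difference and adjusted p. Other filters, and leaving out an array outside the contrast, kept the same difference. Most of the 31 results were also not called in the main fit, so the 749 is not read as a measure of stability. The number of the 7 genes called in the challenge with vehicle was 0 with slide as a fixed block (0.054% of all probes called) and 0 with array weights (0.403%, in an estimation that did not converge). It was 5 with slide as a random block (36.9%), 2 by the methods' rule (2.51%), 2 with the adipocyte covariate (9.97%) and 2 to 5 when 1 array was left out (7.38% to 38.0%). In the rapamycin arm it was 1 by the methods' rule (5.14%), 2 within slide 2 (11.8%), 0 with the brightness covariate (6.42%) and 3 to 6 when 1 array was left out (23.5% to 56.9%). It stayed at 0 in the other 3 contrasts under all alternatives run, beside shares of all probes that varied. With 1 array left out, these shares ran from 0.108% to 39.9% for rapamycin under challenge and from 0% to 11% for the interaction. Both were highest without BA+DMSO replicate 2. For rapamycin alone they ran from 0% to 0.0144%, and array weights gave 5.44%. With the title number as a replicate block on the 4 same-day arrays, rapamycin alone called 0 of 7 genes (0.0827% of all probes). Ucp1 stood there at 2.80 (limma, adjusted p = 0.159). The 2 pairs are too few to check whether the numbers pair the mice.

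For Ucp1 in the rapamycin arm the sign turned under quantile normalization (-0.10), in the deposited matrix (-0.11), with slide as a fixed block or within slide 2 (-0.12), with the brightness covariate (-0.86) and with the adipocyte covariate (-0.61), and ran from -0.18 to 1.64 when 1 array was left out. Relative to the adipocyte genes it was 0.0941 under normexp and -1.21 to 0.27 with 1 array left out. Cpt1b in rapamycin under challenge was -0.0079 under quantile normalization, -0.0098 in the deposited matrix, -0.38 with the brightness covariate and -0.34 to 0.64 with 1 array left out, and with brightness it was -0.0921 in the challenge with vehicle and -0.0153 in the rapamycin arm. Ppargc1a in rapamycin under challenge was 0.0503 under normexp. With 1 array left out, Ucp3 in rapamycin under challenge ran from -0.35 to 0.0349, and in rapamycin alone Cidea ran from -0.0156 to 0.38 and Prdm16 from -0.13 to 0.0198. Relative to the adipocyte genes, leaving out 1 array gave -0.73 to 0.0081 for Cpt1b in the challenge with vehicle, -0.26 to 0.74 for Ucp3 and -0.0864 to 1.38 for Dio2 in the rapamycin arm. The cause was not tested. Signal over background limits Ucp1, which was at background on 7 of 12 arrays.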
